A study of Mus musculus with 4 samples.

Results

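The genes described here are 10 immediate early genes, the zinc finger factors *Egr1*, *Egr2*, *Egr3* and *Egr4*, the orphan nuclear receptors *Nr4a1*, *Nr4a2* and *Nr4a3*, the immediate early response genes *Ier2* and *Ier3*, and the antiproliferative gene *Btg2*. They were chosen by name, with their FPKM in control and *Rax* iCKO libraries already known, and all 10 are among the 24322 gene symbols in the files. Their differences between the genotypes are therefore given as a description, with no p-value. RNA was sequenced from mTFP-positive cells that were sorted from dissociated retinas of 4 mice, with 1 library per mouse, and each mouse is called by the number in its label. The 2 control mice, 7984 and 3911, were Raxflox/WT, and the 2 *Rax* iCKO mice, 7983 and 3914, were Raxflox/flox. All 4 also carried Rlbp1-CreERT2 and R26-CAG-LoxP-mTFP1 and received tamoxifen at P4, and the retinas were harvested at P14. The labels name 129S6 for all 4. Tamoxifen lets the Cre, which is driven by a promoter fragment of the Müller glial gene *Rlbp1*, delete floxed *Rax* and switch on the teal fluorescent protein mTFP1. The controls had therefore been through Cre activity as well and could keep 1 working *Rax* allele, and this Cre line also recombines in retinal pigment epithelium.

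Immediate early genes are switched on within minutes of a stimulus, without new protein synthesis, mostly through ERK kinases acting on SRF with its TCF partners and through CREB. EGR proteins bind GC-rich DNA and are held in check by the corepressors NAB1 and NAB2, which are EGR targets themselves, and NR4A proteins bind DNA without a known hormone. Their RNAs are short-lived, and in Müller glia, as in most cells, they rise after injury or growth factors and also during enzymatic dissociation and sorting.

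The values are FPKM, the fragments on a gene scaled by its exon length and by the number of mapped fragments, so that levels of different genes can be compared. *Rax*, the targeted gene, had 189 FPKM in control mouse 7984 and 181 in 3911, against 111 in *Rax* iCKO mouse 7983 and 98.4 in 3914. All 14 Müller glial markers were above 0 in the 4 libraries, and so were all 10 rod, all 9 bipolar cell and all 10 microglial markers. The depth, estimated from the whole-read steps of low values, was between 9230000 and 12590000 mapped reads.

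Promoter windows of 7 of the 10 genes were found in the RefSeq table of GRCm38.p6, the build the reads were mapped to, each from 250 bases before a transcript start to 50 after it. Both strands were searched for the CArG box, which SRF binds, for TGACGTCA, the full CREB site, for TAATT, the predicted Rax site studied in the paper's reporter assays, and for the EGR site GCGTGGGCG and the NR4A site AAAGGTCA. *Egr1*, *Egr3* and *Ier2* had no window there and were not searched. The 7 genes had 11 windows, 5 of them at different starts of *Egr2*, some of which overlap. The CArG box was found in 4 of the 11 windows, all of *Egr2* and so of 1 of the 7 genes. It was found in 1.63% of the 32851 promoter windows searched. TGACGTCA was found in 1 window, of *Btg2*, against 1.79% of all windows, and TAATT in 2, of *Egr2* and *Ier3*, against 27.0%. GCGTGGGCG (0.612% of windows) and AAAGGTCA (1.51%) were in none of the 11. These matches describe letters in short windows and do not show binding. Below are 2 of the 5 windows of *Egr2* and the windows of *Ier3*, the genes with the lowest ratios of *Rax* iCKO to control, and of *Btg2*, with CArG boxes, TGACGTCA and TAATT (or its reverse complement) in capitals. With the transcript start as position 0, TAATT begins at -136 and a CArG box at -72 in the first *Egr2* window, and in the second, for a downstream start, another CArG box also begins at -72. Of the *Egr2* windows not printed, those beginning at 67537620 and 67537680 overlap the second one and its CArG box, and the one for the most upstream start, beginning at 67535249, holds none of these sites. In *Btg2*, TGACGTCA begins at -166, and in *Ier3* the reverse complement of TAATT begins at position 2, within the transcript.
Egr2, plus strand, chr10:67537316-67537615: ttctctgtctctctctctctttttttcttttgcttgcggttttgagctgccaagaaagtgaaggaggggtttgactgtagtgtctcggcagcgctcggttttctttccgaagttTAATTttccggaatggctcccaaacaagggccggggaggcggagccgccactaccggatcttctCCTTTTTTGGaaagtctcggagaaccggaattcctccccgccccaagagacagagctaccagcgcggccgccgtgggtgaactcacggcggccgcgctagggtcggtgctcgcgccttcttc
Egr2, plus strand, chr10:67537619-67537918: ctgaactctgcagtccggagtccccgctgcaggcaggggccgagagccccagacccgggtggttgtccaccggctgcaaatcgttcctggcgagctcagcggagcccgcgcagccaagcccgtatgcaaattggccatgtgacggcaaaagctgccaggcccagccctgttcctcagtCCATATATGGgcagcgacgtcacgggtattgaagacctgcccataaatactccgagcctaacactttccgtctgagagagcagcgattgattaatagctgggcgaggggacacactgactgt
Btg2, minus strand, chr1:134079106-134079405: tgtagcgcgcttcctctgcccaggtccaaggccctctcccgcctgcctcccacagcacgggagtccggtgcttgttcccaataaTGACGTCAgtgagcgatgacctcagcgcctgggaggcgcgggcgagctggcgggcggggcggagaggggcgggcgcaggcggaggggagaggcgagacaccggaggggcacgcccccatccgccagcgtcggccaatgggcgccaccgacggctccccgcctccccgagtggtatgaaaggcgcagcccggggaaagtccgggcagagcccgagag
Ier3, plus strand, chr17:35821463-35821762: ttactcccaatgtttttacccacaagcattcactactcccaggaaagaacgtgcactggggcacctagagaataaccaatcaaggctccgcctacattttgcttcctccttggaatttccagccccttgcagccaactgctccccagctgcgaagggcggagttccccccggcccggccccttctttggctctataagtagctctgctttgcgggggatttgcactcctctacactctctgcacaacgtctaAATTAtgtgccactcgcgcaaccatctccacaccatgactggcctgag

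The 10 genes spanned a wide range of levels. *Ier2* (mean 474 FPKM over the 4 libraries), *Egr1* (441) and *Btg2* (381) were among the 290 most abundant symbols of every library, and their ranges over libraries overlapped, so that their order is not fixed. *Ier3* (19.7) and *Nr4a1* (13.9) followed, overlapped each other and lay below the first 3 in all 4 libraries. *Egr2* (3.08) lay below these in every library. *Egr3* (0.415), *Nr4a2* (0.408), *Egr4* (0.294) and *Nr4a3* (0.134) stayed under 1 FPKM in every library, and each overlapped the next. By the depth estimate, *Egr1* rested on about 10000 to 31000 reads per library and *Ier2* on about 4500 to 9500, whereas *Egr4* rested on about 4.1 to 8.1 and *Nr4a3* on about 1.1 to 17, the ranges covering the median and the longest annotated transcript where a gene has several. No exon of the 10 genes overlaps an exon of another gene in GENCODE M21.

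**Figure D1:**
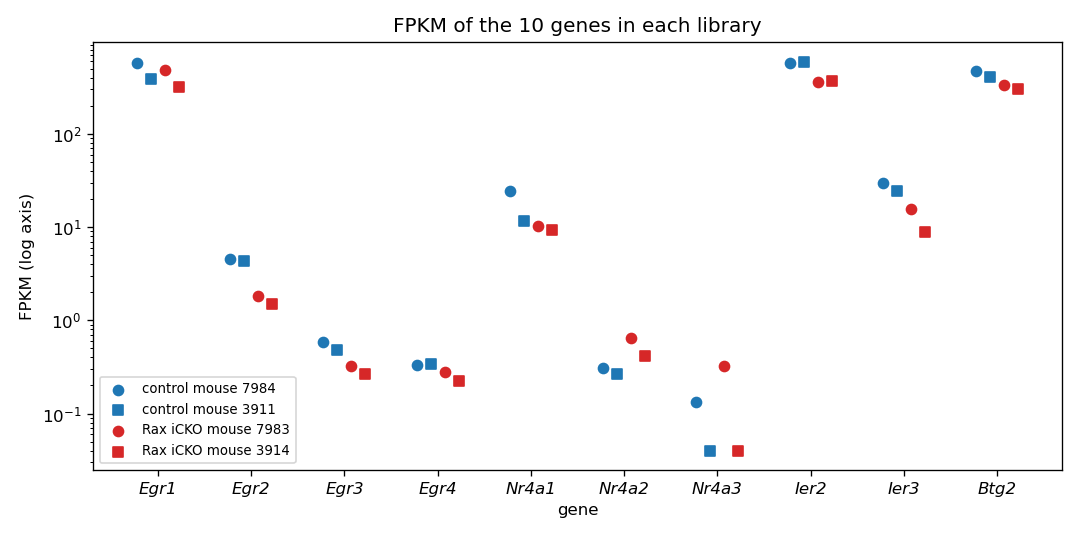
FPKM of each gene (log axis) in the 2 control libraries (blue) and the 2 *Rax* iCKO libraries (red), with circles for mice 7983 and 7984 and squares for mice 3911 and 3914. *Ier2*, *Egr1* and *Btg2* lie at 306 FPKM or more in every library, and *Egr3*, *Egr4*, *Nr4a2* and *Nr4a3* under 1.

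In the comparison of genotypes, 7 of the 10 genes had both *Rax* iCKO libraries below both controls, 1 (*Nr4a2*) was higher in both, and *Egr1* and *Nr4a3* overlapped. Of the 17865 genes detected in at least 1 library, 14.5% were lower in both *Rax* iCKO libraries and 13.7% higher in both. Since the genes were chosen with these values in view, nothing is read from the gap between the counts. The median difference in log2(FPKM + 1) of all 10, *Rax* iCKO minus control, was -0.38, and the single differences ran from -1.14 for *Ier3* to 0.25 for *Nr4a2*. Leaving out control mouse 7984 moved the median to -0.21. This scale understates the change of genes near or under 1 FPKM, for which the ratio of mean FPKM is given as well. In bulk RNA from sorted cells, fewer cells of a type that expresses a gene and less RNA per cell cannot be told apart.

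Among the EGR factors, *Egr2* had the lowest ratio of *Rax* iCKO to control, and *Egr1*, by far the most abundant, had the highest. *Egr2*, which drives myelination in Schwann cells and is part of growth factor responses elsewhere, lies on the plus strand of chromosome 10 from 67535475 to 67542188. It had 4.6 FPKM in control mouse 7984 and 4.36 in 3911, against 1.84 in *Rax* iCKO mouse 7983 and 1.51 in 3914. Both *Rax* iCKO values lay under both controls, with means of 4.48 ± 0.168 (SD, n = 2) for controls against 1.68 ± 0.230 (SD, n = 2), and the ratio of *Rax* iCKO to control was 0.374. These values stand for about 41 and 28 reads in controls against 12 and 9.8 at the median length of its 7 annotated transcripts, and for about 160 and 110 against 48 and 39 at the longest, so counting error adds to the SD between 2 libraries. *Egr1*, the best known sensor of growth factor and synaptic stimuli in the family, lies on the plus strand of chromosome 18 from 34859823 to 34864984. Its FPKM was 575 and 393 in controls against 480 and 316 in *Rax* iCKO, so that the groups overlapped and *Rax* iCKO mouse 7983 exceeded control mouse 3911. The means were 484 ± 129 (SD, n = 2) and 398 ± 116 (SD, n = 2), a ratio of 0.822, and each *Rax* iCKO mouse was lower than the control mouse close to it in number, at 0.835 and 0.803 of its FPKM. The log2 difference was -0.29 with all libraries, -0.59 without mouse 7983, -0.56 without 3911, -0.01 without 7984 and 0.01 without 3914, and it was -0.06 with quantile normalization.

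*Egr3* and *Egr4*, which act in neurons and muscle spindles (*Egr3*) and in male germ cells (*Egr4*), were close to the limit of detection. *Egr3*, on chromosome 14 from 70077203 to 70082614, was at 0.589 and 0.479 FPKM in controls against 0.324 and 0.268 in *Rax* iCKO (ratio 0.554). *Egr4*, on chromosome 6 from 85511121 to 85513589, was at 0.331 and 0.340 in controls against 0.279 and 0.226 in *Rax* iCKO (ratio 0.752). Both genes were lower in both *Rax* iCKO libraries. For *Egr3* these values stand for about 18 and 11 reads against 7.6 and 6.2 at the median transcript length. For *Egr4* they stand for about 8.1 and 6.1 reads against 5.1 and 4.1. On so few reads nothing is read from either difference, and neither was tested.

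Of the NR4A receptors, 1 was lower in both *Rax* iCKO libraries, 1 was higher in both and 1 overlapped, and *Nr4a2* and *Nr4a3* rested on few reads. *Nr4a1* (Nur77), which regulates metabolism and apoptosis and is the receptor of the family most used as an activity reporter, lies on chromosome 15 from 101254269 to 101274795. It had 24.3 FPKM in control mouse 7984 and 11.6 in 3911, against 10.2 in *Rax* iCKO mouse 7983 and 9.24 in 3914. The ratio of the means was 0.542, with an SD of 0.704 between the *Rax* iCKO libraries and of 8.94 between the controls (n = 2 each). This ratio rested on control mouse 7984, since the other control was close to the *Rax* iCKO libraries. The log2 difference was -0.74 with all libraries, -0.24 without mouse 7984 and -1.24 without mouse 3911. *Nr4a2* (Nurr1), which is needed by midbrain dopamine neurons, lies on chromosome 2 from 57106830 to 57124003 and had a ratio above 1. It was at 0.306 and 0.267 FPKM in controls against 0.641 and 0.418 in *Rax* iCKO, a ratio of 1.85, and was the only one of the 10 genes higher in both *Rax* iCKO libraries. These values stand for about 9.9 and 6.3 reads against 16 and 9.9 at the median transcript length. On so few reads nothing is read from the difference, which was not tested. Its log2 difference was 0.25 with all libraries and 0.14 without mouse 7983. *Nr4a3* (Nor1), on chromosome 4 from 48045153 to 48086447, was at 0.132 and 0.0401 in controls against 0.326 and 0.0400 in *Rax* iCKO. Its groups overlapped, and the higher mean in *Rax* iCKO came from mouse 7983, without which the log2 difference went from 0.11 to -0.06. It was 0.18 without mouse 7984, 0.05 without 3911 and 0.29 without 3914.

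*Ier2*, *Ier3* and *Btg2* were lower in both *Rax* iCKO libraries. *Ier2*, a nuclear protein with a role in cell motility, lies on the minus strand of chromosome 8 from 84661331 to 84662852. It was at 574 and 594 FPKM in controls against 361 and 368 in *Rax* iCKO, with means of 584 ± 14.4 (SD, n = 2) and 365 ± 5.42 (SD, n = 2), a ratio of 0.624. Its 2 libraries of a genotype were within a few percent of each other, and the ratio was 0.629 for mouse 7983 over 7984 and 0.620 for mouse 3914 over 3911. *Ier3* (IEX-1), which modulates cell survival and NF-kB and ERK signaling, lies on the plus strand of chromosome 17 from 35821684 to 35822923. It had the most negative difference of the 10 in log2(FPKM + 1) with all libraries. *Egr2* was more negative with 0.1 added in place of 1 (-1.37 against -1.2) and without mouse 3914 (-0.95 against -0.76). *Ier3* was at 29.6 and 24.7 FPKM in controls against 15.6 and 8.81 in *Rax* iCKO, a ratio of 0.450. The *Rax* iCKO libraries differed among themselves, with a mean of 12.2 ± 4.80 (SD, n = 2) against 27.2 ± 3.44 (SD, n = 2) in control, and the log2 difference was -1.14 with all libraries and -0.76 without mouse 3914, and it was -1.52 without mouse 7983. *Btg2*, a p53 target that slows the cell cycle and recruits the deadenylase to mRNA, lies on the minus strand of chromosome 1 from 134075170 to 134079120. It was at 474 and 411 FPKM in controls against 334 and 306 in *Rax* iCKO, with means of 442 ± 45.1 (SD, n = 2) and 320 ± 19.8 (SD, n = 2), a ratio of 0.724, and the groups did not overlap. With quantile normalization the log2 difference of *Btg2* went from -0.46 to -0.27.

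**Figure D2:**
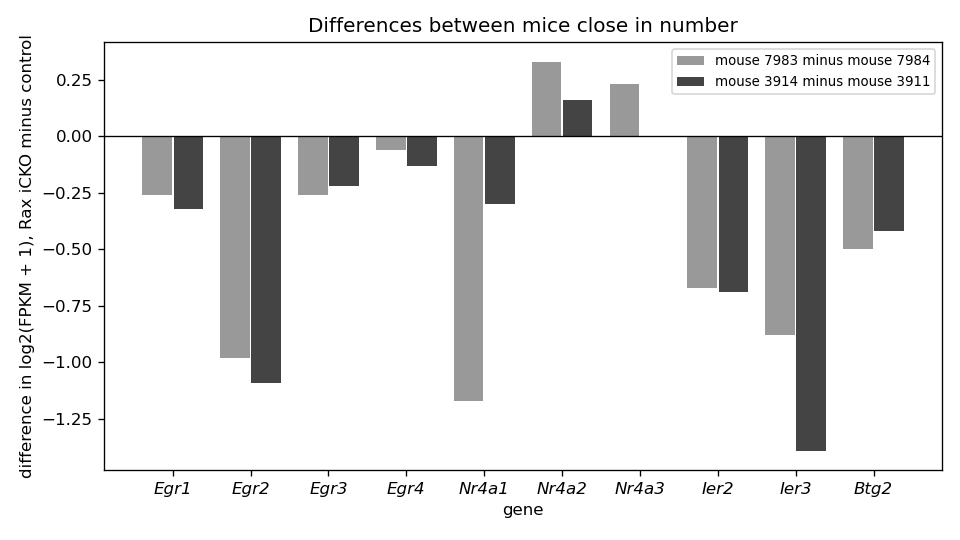
Difference in log2(FPKM + 1), *Rax* iCKO minus control, for each gene between mice 7983 and 7984 (light bars) and between mice 3914 and 3911 (dark bars). For *Ier2* the bars are -0.67 and -0.69, for *Nr4a1* -1.17 and -0.30, and *Nr4a2* is the gene with both bars above 0.

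The mouse numbers fall into 2 runs, 7983 with 7984 and 3911 with 3914, and each run holds 1 mouse of each genotype. What else the mice of a run shared is not given in the labels. This contrast was not used to choose the genes, so it was tested with limma in a model with genotype and run, over the 12363 genes whose FPKM averaged 1 or more. *Egr3*, *Egr4*, *Nr4a2* and *Nr4a3* fell under this filter. The model leaves 1 residual degree of freedom. Of the 6 genes tested, 1 (*Egr1*) had an adjusted p under 0.05, against 18.8% of all genes tested. This count is near that share, so it marks nothing particular to these genes. *Egr1* was lower in mice 3911 and 3914, with a mean of 354 FPKM against 527 in mice 7983 and 7984 and a log2 difference of -0.58 (standard error 0.14, limma adjusted p = 0.0171). Both mice of the first run exceeded both of the second, whichever their genotype, and this run difference was larger in size than the log2 difference of -0.29 between the genotypes, although the difference between these 2 values was not tested. *Ier3* (-0.50, limma adjusted p = 0.0631) and *Nr4a1* (-0.57, limma adjusted p = 0.0791) missed the threshold, and *Ier2* had 0.04 (limma adjusted p = 0.872). Sums of marker lists that also separated the runs, with mice 7983 and 7984 first, were those of bipolar cells (5278 and 3886 FPKM against 9084 and 7642), cones (142 and 157 against 199 and 199), amacrine cells (71.3 and 79.0 against 54.9 and 50.7), pericytes (24.5 and 27.0 against 11.1 and 13.2), pigment epithelium (4.91 and 2.11 against 5.79 and 8.99) and endothelium (412 and 495 against 250 and 264). In each sum 1 gene was the largest part, in the same order *Pcp2*, *Gngt2*, *Pax6*, *Pdgfrb*, *Ttr* and *Kdr*. *Pdgfrb* was at 21.5 and 24.7 FPKM against 10.3 and 11.8, *Ttr* at 2.49 and 1.0 against 4.12 and 7.37, and *Kdr* at 385 and 464 against 228 and 241. Such sums need not follow the number of those cells. The part of these lists in the run difference of *Egr1* was not tested. For *Egr1* the limma adjusted p was between 6.17e-05 and 0.0755 under 6 other settings, and it missed 0.05 without the filter on low values and without the variance trend.

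The profile over the 4 libraries, taken as log2(FPKM + 1) minus the gene's mean, was averaged over the 6 genes that averaged 1 FPKM or more. Its value was 0.53 and 0.19 for controls 7984 and 3911, against -0.21 and -0.51 for *Rax* iCKO mice 7983 and 3914. The 5 genes nearest to it by Euclidean distance were *Anxa4* (0.0460), *Galm* (0.0487), *Cyr61* (0.0612), *Rbm20* (0.0808) and *Tmem164* (0.0912). *Cyr61*, a secreted matricellular protein and an immediate early gene itself, was at 559 and 430 FPKM in controls against 326 and 279 in *Rax* iCKO. Distances of the 6 genes themselves were larger, from 0.301 for *Btg2* to 0.531 for *Ier3*, and 1003 other genes lay within 0.531. With 4 libraries, such likeness is a description and says little about any one gene.

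**Figure D3:**
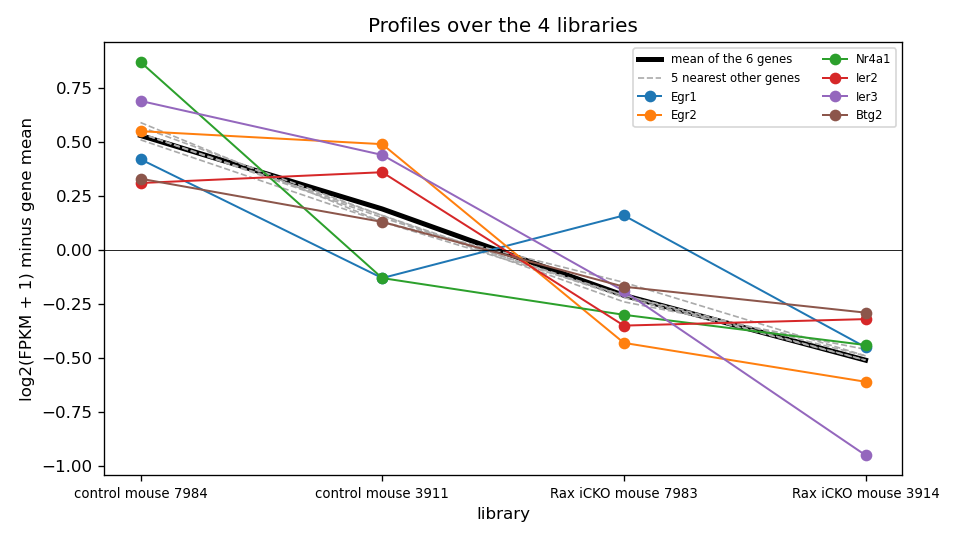
log2(FPKM + 1) minus the gene's mean in each library, for the 6 genes that averaged 1 FPKM or more (colored lines), their average (thick black line) and the 5 nearest other genes (dashed grey lines). The average is highest, at 0.53, in control mouse 7984 and lowest, at -0.51, in *Rax* iCKO mouse 3914, and *Egr1* is the gene above 0 in *Rax* iCKO mouse 7983.

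Related genes that are not among the 10 were set beside them in 7 lists of 103 genes, of which 84 averaged 1 FPKM or more. In limma, 0 of the 84 passed an adjusted p of 0.05 for genotype and 6 had an unadjusted p under 0.05, as did 354 (2.86%) of all 12363 genes tested. Over all 12363 genes, 3 (0.0243%) had an adjusted p under 0.05, the median log2 difference was 0.00 and the middle 50% of differences lay between -0.19 and 0.18. In this design the smallest two-sided p of an exact permutation test on a single gene is 0.333.

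Upstream of the 10 genes, more factors and kinases had positive than negative differences, none of which passed the test. Of 14 SRF, TCF, MRTF, CREB and MEF2 factors and coactivators tested, 1 was lower and 2 were higher in both *Rax* iCKO libraries, with 11 positive and 3 negative log2 differences and a median of 0.11. Among all genes tested, 14.1% were lower and 15.4% higher in both *Rax* iCKO libraries, and 50.8% of differences were negative. *Mef2d*, a calcium-regulated factor at many immediate early promoters, was at 40.4 and 29.2 FPKM in controls against 48.6 and 47.2 in *Rax* iCKO (log2 difference 0.47, limma adjusted p = 1.0). *Elk3*, a TCF that often represses, was at 2.67 and 1.49 in controls against 1.39 and 1.17 in *Rax* iCKO (-0.41, limma adjusted p = 1.0). Of 12 ERK, p38, RSK and MSK kinases, 0 were lower and 2 were higher in both *Rax* iCKO libraries, 8 differences were positive and 4 negative, and the median was 0.07. Without mouse 7983, 7984, 3911 or 3914 in turn, the median of the factors was -0.04, 0.30, -0.05 and 0.19, and that of the kinases 0.06, 0.11, -0.01 and -0.01. *Rps6ka5* (MSK1), which phosphorylates CREB and histone H3 at these genes, was at 4.74 and 4.35 in controls against 5.92 and 7.14 in *Rax* iCKO (0.44, limma adjusted p = 1.0). The 4 tested partners of EGR and NR4A proteins, among them *Nab1* and *Nab2*, all overlapped between the genotypes, and their median of -0.14 went to 0.26 without mouse 7984, 0.17 without 3914, -0.40 without 3911 and -0.56 without 7983. Among 7 tested relatives of *Ier2*, *Ier3* and *Btg2*, 1 (*Ier5*) was lower and 1 (*Btg3*) higher in both *Rax* iCKO libraries, at 11.6 and 9.79 against 7.83 and 7.62 FPKM for *Ier5* and 3.50 and 2.63 against 4.52 and 5.43 for *Btg3*, control first. The median of these relatives, -0.12, was -0.32, -0.03, -0.21 and 0.08 without mouse 7983, 7984, 3911 and 3914 in turn.

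In the list of other immediate early genes, negative differences were in the majority, with 22 negative and 5 positive. Of its 27 tested genes, 12 (44.4%) were lower and 1 was higher in both *Rax* iCKO libraries, against 14.1% and 15.4% of all genes tested. The median log2 difference was -0.29, and 5 genes had an unadjusted limma p under 0.05, against 2.86% of all genes tested. The median was -0.12 without control mouse 7984 and -0.60 without control mouse 3911. A negative difference of such genes was known when the list was written, so this count is not independent of the pattern in the 10. *Zfp36*, which binds AU-rich elements and speeds the decay of short-lived mRNAs, had the most negative value, with 67.6 and 55.8 FPKM in controls against 37.5 and 24.0 in *Rax* iCKO (-1.01, standard error 0.27, limma adjusted p = 1.0). With the mouse-number run as a block, which leaves 1 residual degree of freedom, *Zfp36* passed the threshold (limma adjusted p = 0.0113). *Gadd45b*, a stress sensor, was at 5.09 and 3.44 in controls against 2.49 and 1.61 in *Rax* iCKO, and *Junb*, an AP-1 subunit, at 244 and 232 against 170 and 131. *Ctgf*, a matricellular relative of *Cyr61*, was at 103 and 59.0 in controls against 57.6 and 47.6 in *Rax* iCKO. The list of heat shock genes, which also respond to dissociation, holds chaperones of unstressed cells beside strongly inducible ones. Of 13 tested, 1 (*Hspe1*) was lower in both *Rax* iCKO libraries. Differences in this list were negative for 8 genes and positive for 5, from -0.56 for *Hspa1b* to 0.13 for *Dnaja1*. Between these, *Hspa1a* and *Bag3* were at -0.36 and *Dnajb1* at -0.18, but *Hsph1* was at 0.03 and *Dnajb4* at 0.07. The median was -0.06, and it turned to 0.06 with quantile normalization, 0.05 without mouse 7983 and 0.04 without mouse 7984. In the list of delayed activity genes, 1 of 7 tested (*Rgs2*, which dampens G protein signaling) was lower in both *Rax* iCKO libraries, at 40.4 and 35.3 against 25.9 and 24.8 FPKM, and 1 (*Bdnf*) was higher by a margin lost on rounding, with 3.40 and 4.21 FPKM in controls against 4.27 and 4.21. The median of the delayed genes, -0.11, was -0.44, 0.11, -0.37 and 0.14 without mouse 7983, 7984, 3911 and 3914 in turn.

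**Figure D4:**
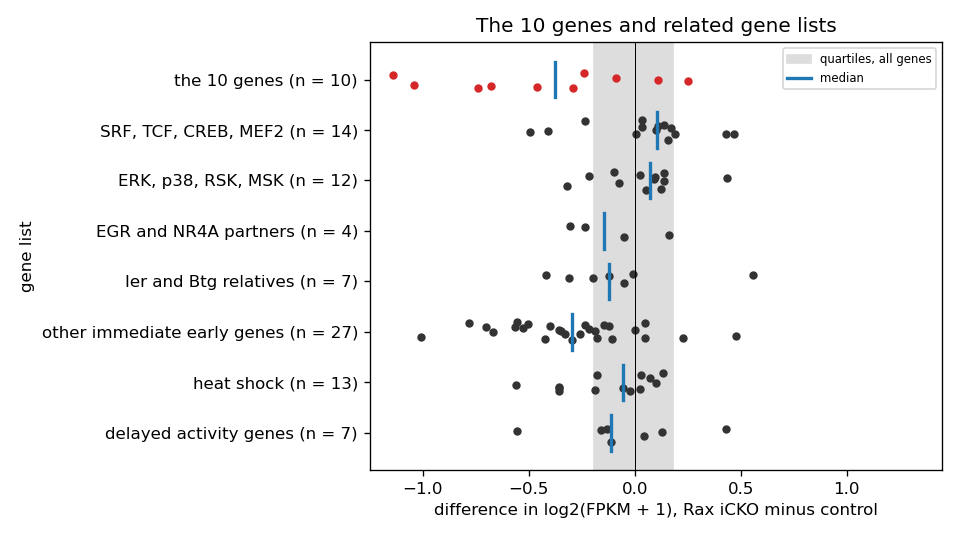
Differences in log2(FPKM + 1), *Rax* iCKO minus control, for the 10 genes (red) and for the tested genes of 7 related lists (black), with list medians as blue lines and the quartiles of all 12363 tested genes as a grey band from -0.19 to 0.18. The medians of the 10 genes (-0.38) and of the other immediate early genes (-0.29) lie left of the band, and the other 6 lists' medians lie inside it.

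Markers of other cells were measured beside these values. For comparison, 14.5% of the 17865 genes detected in at least 1 library were lower in both *Rax* iCKO libraries and 13.7% were higher in both. Of the 10 rod markers, 9 were lower in both *Rax* iCKO libraries, and their summed FPKM was 1540 in control mouse 7984 and 1543 in 3911, against 1052 in *Rax* iCKO mouse 7983 and 901 in 3914. The 14 Müller glial markers summed to 16318 and 12428 in controls against 11120 and 11192 in *Rax* iCKO, with 5 lower and 0 higher in both *Rax* iCKO libraries. *Rax* itself, the deleted gene, is on this list and is 1 of the 5. The 4 astrocyte markers summed to 51.5 and 43.4 against 28.7 and 31.3, with 1 of the 4 lower in both *Rax* iCKO libraries. That was *Aldh1l1*, at 44.2 and 30.5 against 22.4 and 20.9, whereas *Gfap* (4.80 and 8.94 against 4.38 and 7.14) and *S100b* (2.53 and 3.91 against 1.89 and 3.23) overlapped and *Pax2* was at 0.0381 or less. These 3 sums separated the genotypes in the direction of the 7 lower genes, and their part in those differences was not tested. The sums of 10 microglial markers (78.0 and 85.2 in controls, 130 and 22.8 in *Rax* iCKO) overlapped. So did those of 8 endothelial markers (495 and 250 against 412 and 264), but *Kdr* made up most of that sum (464 and 228 against 385 and 241), whereas the defining markers *Pecam1* (0.638 and 0.212 against 0.204 and 0.387) and *Cdh5* (at most 0.104) were near 0, so the sum does not measure endothelial cells. The 9 bipolar cell markers summed to 3886 and 9084 in controls against 5278 and 7642 in *Rax* iCKO, and 5 of them were higher in both *Rax* iCKO libraries. The sums of the 7 cone, 8 amacrine, 8 ganglion cell, 6 pericyte and 7 pigment epithelium markers overlapped between the genotypes too, *Pou4f1* (ganglion cells) and *Mlana* (pigment cells) were listed at 0 in all libraries, and no marker had a limma adjusted p under 0.05.

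**Figure D5:**
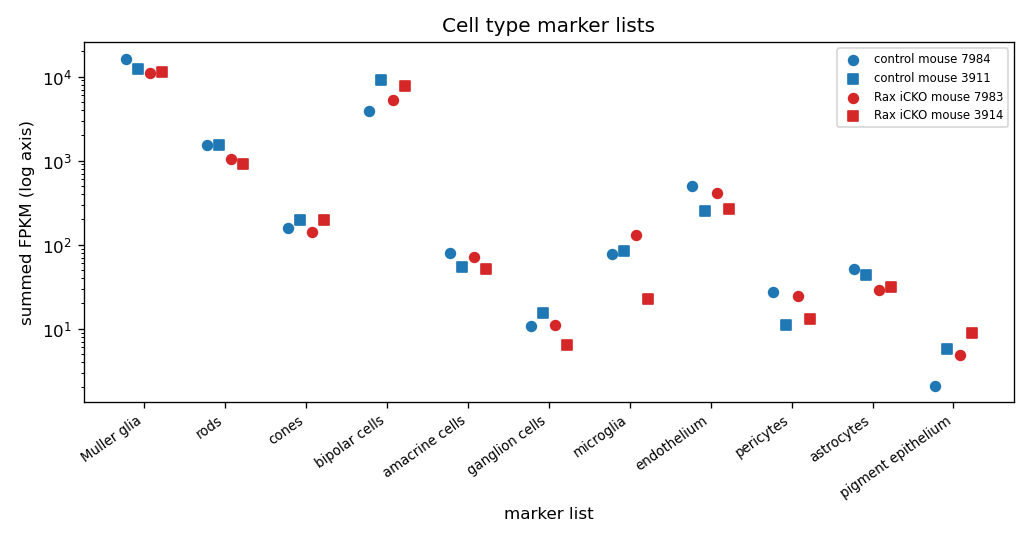
Summed FPKM (log axis) of each cell type marker list in the 2 control libraries (blue) and the 2 *Rax* iCKO libraries (red), with circles for mice 7983 and 7984 and squares for mice 3911 and 3914. The rod sums lie at 1540 and 1543 in controls against 1052 and 901 in *Rax* iCKO, and the microglial sum is lowest, at 22.8, in *Rax* iCKO mouse 3914.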

How the data were processed

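RNA-seq was performed on mTFP-positive cells sorted by FACS, with 1 library from each of 4 mice. Per the labels, cDNA was made with a SMART-Seq HT kit and libraries with Nextera XT. The authors aligned the single-end reads against mm10 using TopHat, and the FPKM they deposited, 1 per gene in each library, came from Cufflinks. The submitters' processing notes name TopHat2 2.1.1, Bowtie2 2.2.8, SAMtools 0.1.18 and Cuffdiff 2.2.1. The paper's methods give other versions of TopHat, Bowtie2 and SAMtools, and name Cufflinks 2.2.1. FPKM are relative to each library's own mapped reads, so a few abundant genes shift the others, and strand use in counting is not given in the sources used here.

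FPKM were used as deposited. The genotypes were set against each other by limma 3.58.1 under R 4.3.3 (eBayes, variance trend) on log2(FPKM + 1). The fit held the 12363 genes that averaged 1 FPKM or more, and p-values were adjusted by Benjamini-Hochberg. The code was tried on simulated data with changes larger than any difference of the 10 genes. That trial does not show how smaller changes would fare. P-values rest on the spread between 2 mice per genotype, which eBayes moderates with the variance of all genes in the fit. The model with genotype and run leaves 1 residual degree of freedom, so its p-values lean heavily on the variance of other genes. Depth was estimated on genes that have a single transcript, 600 bases or longer, with 200 bases taken off its length, as the number of mapped reads, searched from 5000000 to 15000000 because multiples of the number can score as well, that brought the FPKM of genes with about 1 to 5 reads nearest to whole reads. Between 74.4% and 80.6% of these genes then lay within 0.1 of a whole read. The numbers of reads are estimates and cover counting error only. The 10 genes and all lists were chosen with earlier results of these data known. In the related lists, genes were named by an adjusted p under 0.05 or, where none passed, as the 5 largest differences among those whose genotypes did not overlap. Alternatives were a pseudocount of 0.1, quantile normalization, no filter, a stricter filter at 5 FPKM, no variance trend, equal medians, the mouse-number run as a block, and leaving out each mouse.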

Additional observations from a re-analysis of the deposited data

How the results depend on the processing

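The median log2 difference of the 10 genes (-0.38) was -0.57 with a pseudocount of 0.1 and -0.68 over the 5 genes that averaged 5 FPKM or more, of which 4 were lower in both *Rax* iCKO libraries. With quantile normalization it was -0.25, and 6 of the 10 genes were lower in both. With 1 mouse left out it lay between -0.56 and -0.21, the last without control mouse 7984. Of 30 values for single genes with another pseudocount or scaling, 0 changed sign, and of 40 with 1 mouse left out, 2 did: *Egr1* came to 0.01 without *Rax* iCKO mouse 3914, and *Nr4a3* to -0.06 without *Rax* iCKO mouse 7983. With quantile normalization the values of *Egr1*, *Btg2* and *Ier2* were -0.06, -0.27 and -0.47. With a pseudocount of 0.1 those of *Egr2*, *Egr3*, *Egr4*, *Nr4a2* and *Nr4a3* were -1.37, -0.68, -0.31, 0.68 and 0.44. The number of genes with a limma adjusted p under 0.05 over all genes (3) was 0 without the filter and with the stricter filter at 5 FPKM, 6 with equal medians, 71 with the mouse-number run as a replicate block, and 15, 18, 20 and 19 without mouse 7983, 7984, 3911 and 3914, where 1 genotype is left with a single library that is assumed to vary like the rest. Of the related lists, 1 gene (*Zfp36*) was called with the run as a block (limma adjusted p = 0.0113). That fit pairs the mice close in number with 1 residual degree of freedom, and the labels do not say that these mice were paired.

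Medians of related lists with a changed sign were -0.04 and -0.05 for the SRF, TCF, CREB and MEF2 list without *Rax* iCKO mouse 7983 or control mouse 3911, 0.26 and 0.17 for EGR and NR4A partners without control mouse 7984 or *Rax* iCKO mouse 3914, 0.08 for the *Ier* and *Btg* relatives without mouse 3914, -0.01 for the kinases without mouse 3911 or 3914, 0.06, 0.05 and 0.04 for heat shock genes with quantile normalization and without mouse 7983 or 7984, and, for delayed activity genes, 0.05 with the stricter filter, 0.11 without mouse 7984 and 0.14 without mouse 3914. For the mouse-number runs, by settings added after the data were seen, the genes called (1) were 2 with a pseudocount of 0.1, with the stricter filter and with quantile normalization, and 0 without the filter and without the variance trend. Leaving out a mouse gives the run contrast no residual degrees of freedom and was not run. Depth limits *Egr3*, *Egr4*, *Nr4a2* and *Nr4a3* most, which rest on about 1.1 to 28 reads per library.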
